A study of Mus musculus with 36 samples.

Results

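The spindle checkpoint and the chromosomal passenger complex were followed through 10 genes, Bub1, Bub1b, Bub3, Mad1l1, Mad2l1 and Ttk for the checkpoint and Aurkb, Incenp, Birc5 and Cdca8 for the passenger complex. They were chosen by symbol, and all 10 were found among the 54842 genes counted. RNA came from mouse embryonic fibroblasts (MEF cells) that carried a doxycycline-inducible dCas9, the Cas9 protein without nuclease activity, and a guide RNA to the major satellite repeats (MSR), which make up the heterochromatin beside the centromeres. In the MSR-dCas9-Control line dCas9 had no effector, and in the MSR-dCas9-Activator line it was fused to the transcriptional activator VPR. Both lines expressed the guide constitutively from the U6 promoter of the same plasmid, while the TRE promoter drove the dCas9 proteins, and both were kept as mixed cultures and not as single clones. Sampling covered uninduced cells, cells induced by 10 ng/ml doxycycline, and cells 3, 6, 12 and 24 h after its removal (post-induction). Each of the 12 groups had 3 replicates, which gives 36 libraries. Induction lasted 24 h in MSR-dCas9-Control and 6 h in MSR-dCas9-Activator cells, so the effector and the length of exposure cannot be told apart after induction. The question put to these genes was how transcripts of the machinery that guards chromosome segregation moved in cells forced to transcribe their major satellites.

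The spindle checkpoint delays anaphase until every kinetochore is attached to microtubules. Ttk (the kinase Mps1) starts the signal at unattached kinetochores, where Bub1 with its partner Bub3 is recruited, Mad1l1 brings in Mad2l1, and Mad2l1, Bub1b (BubR1) and Bub3 together with Cdc20 form the inhibitor of the anaphase-promoting complex (APC/C). The chromosomal passenger complex sits at the inner centromere, in the pericentromeric heterochromatin, and corrects wrong attachments. Aurkb is its kinase, Incenp its scaffold and activator of Aurkb, and Birc5 (Survivin) and Cdca8 (Borealin) tether it to chromatin. Most of these transcripts peak in G2 and mitosis in cycling cells, so in bulk RNA fewer dividing cells and less RNA per cell cannot be told apart.

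Gene counts per library ranged from 27376846 to 57371803 with a median of 42865961. The count of the satellite family GSAT_MM as a percent of gene counts was 0.00224 to 0.00516 in MSR-dCas9-Control and 0.00535 to 0.0101 in uninduced MSR-dCas9-Activator libraries, and 0.232 to 4.01 in every MSR-dCas9-Activator library from induction on, so the satellite was high in the libraries labelled as induced or post-induction MSR-dCas9-Activator. Of 10 fibroblast markers 9 were detected in all libraries, while Thy1 had at most 6 counts. The summed level of this list was 22380 to 34790 CPM (counts scaled to a common library total) in the groups other than MSR-dCas9-Activator at 12 h (15310 to 18290 CPM) and 24 h (10940 to 20110 CPM). The 4 macrophage markers summed to 10.7 to 14.8 CPM in MSR-dCas9-Control, 11.9 to 12.9 in uninduced, 11.6 to 15.5 in induced and 16.1 to 23.2 CPM in post-induction MSR-dCas9-Activator libraries, mainly from Csf1r and Cd68, with Adgre1 at most at 3 counts. The 4 neural markers summed to 15.3 to 30.4 CPM in MSR-dCas9-Control, 31.7 to 35.9 in uninduced and 5.15 to 21.9 CPM in later MSR-dCas9-Activator libraries, with Tubb3 the highest and Map2 at most at 5 counts. The 4 epithelial markers summed to 0.506 to 0.817 CPM in MSR-dCas9-Control and 1.38 to 3.64 CPM in MSR-dCas9-Activator libraries, with Epcam and Krt5 at most at 4 counts. The 4 endothelial markers summed to 0.590 to 1.91 CPM in MSR-dCas9-Control, 1.63 to 3.06 CPM in uninduced and 14.1 to 44.0 CPM in later MSR-dCas9-Activator libraries, from Pecam1 and Tek, while Cdh5 had at most 22 counts. The share of the 13 mitochondrially encoded mRNAs was 1.68% to 2.08% of gene counts in group means of MSR-dCas9-Control, 1.82% in uninduced and 2.29% to 2.87% in later MSR-dCas9-Activator cells. The part of these shifts in the results below was not tested. One replicate number stood apart for the 10 genes. MSR-dCas9-Activator replicate 2 had the lowest value of its group for each of them at 6 and at 12 h. The summed level of the 10 in replicates 1, 2 and 3 was 1006, 632 and 901 CPM at 6 h and 849, 552 and 735 CPM at 12 h. Replicate 2 also had the lowest sum of its group at the other time points, before induction included (889, 721 and 763 CPM). Gene counts of replicate 2 were 41298575 at 6 h and 42477827 at 12 h, near the median. Its scaling factor from edgeR's trimmed mean (TMM) normalisation was the highest of its group at both times. The factors of replicates 1, 2 and 3 were 0.9302, 1.044 and 0.8479 at 6 h and 0.9589, 1.076 and 0.8485 at 12 h. A higher factor lowers the scaled level of every gene, and the part of this in the low sums was not tested.

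All 10 genes passed the filter on low counts. Values are CPM after edgeR's trimmed mean (TMM) normalisation unless stated otherwise. In uninduced MSR-dCas9-Control cells, per kilobase of exon, Bub1b was highest at 33.1 CPM per kb, then Incenp (29.7) and Bub1 (27.3). Lower levels were held by Birc5 (23.6), Aurkb (23.1), Bub3 (17.3), Mad1l1 (14.3), Cdca8 (13), Ttk (9.92) and Mad2l1 (9.10). The ranges of the 3 libraries overlapped between neighbours in this order except from Bub1 to Birc5, from Aurkb to Bub3, from Bub3 to Mad1l1 and from Cdca8 to Ttk. Exon length was taken over all annotated transcripts of a gene, which lowers the level per kb of a gene with long rare transcripts. On GRCm38, Bub1 lies at chromosome 2, 127801122 to 127831865 (minus strand), Bub1b at chromosome 2, 118598211 to 118641591 (plus), Bub3 at chromosome 7, 131560222 to 131571895 (plus). Mad1l1 lies at chromosome 5, 140008689 to 140321552 (minus), Mad2l1 at chromosome 6, 66535390 to 66547220 (plus) and Ttk at chromosome 9, 83834689 to 83872389 (plus). Aurkb lies at chromosome 11, 69045647 to 69051664 (plus), Incenp at chromosome 19, 9872296 to 9899551 (minus), Birc5 at chromosome 11, 117849251 to 117855743 (plus) and Cdca8 at chromosome 4, 124918465 to 124939311 (minus). The genes span from 6.0 kb (Aurkb) to 312.9 kb (Mad1l1). Cdca8 shares 232 exon bases with 9930104L06Rik on the opposite strand (mean counts 2882 and 704.9), and Mad1l1 shares 37 with Gm16121 on the opposite strand (2109 and 192.2). The libraries were stranded, but the strand setting of the counting is not stated, so reads in these stretches could belong to either gene. The other 8 genes share no exon base with another gene.

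Promoters of such genes often hold a CHR (cell cycle genes homology region) element and CCAAT boxes, through which the MuvB complexes and NF-Y restrict transcription to G2 and mitosis. Windows from 250 bases before to 50 bases after the transcription start (RefSeq, GRCm38.p6) were at hand for 8 of the 10 genes, not for Aurkb and Incenp, and 10 windows in all. The windows of 4 genes are printed because these genes share CHR and CCAAT letters but took different courses in the counts. Ttk at chr9:83834439-83834738 (plus strand) and Bub1b at chr2:118597961-118598260 (plus) fell the most among the genes with a window. Bub3 at chr7:131560120-131560419 (plus) was transiently higher by 3 of the 4 scalings, and Cdca8 at chr4:124936868-124937167 (minus) differed least. Each reads 5′ to 3′ on the strand of the gene, and capitals mark CCAAT or TTTGAA on either strand (ATTGG and TTCAAA on the other). In the Cdca8 window TTTGAA and the last ATTGG share 1 letter.
Ttk: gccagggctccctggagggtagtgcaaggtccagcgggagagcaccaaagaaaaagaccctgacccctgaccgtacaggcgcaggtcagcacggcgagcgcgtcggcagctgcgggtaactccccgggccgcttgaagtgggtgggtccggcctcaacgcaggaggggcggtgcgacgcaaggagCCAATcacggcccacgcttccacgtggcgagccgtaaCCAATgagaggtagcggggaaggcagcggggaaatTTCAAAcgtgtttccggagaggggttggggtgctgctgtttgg
Bub1b: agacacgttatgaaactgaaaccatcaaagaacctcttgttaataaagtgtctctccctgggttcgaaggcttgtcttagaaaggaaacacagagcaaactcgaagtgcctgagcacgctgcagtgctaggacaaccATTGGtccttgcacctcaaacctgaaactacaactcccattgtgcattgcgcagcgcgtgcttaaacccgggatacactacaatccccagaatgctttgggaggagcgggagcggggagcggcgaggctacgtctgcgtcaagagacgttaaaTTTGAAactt
Bub3: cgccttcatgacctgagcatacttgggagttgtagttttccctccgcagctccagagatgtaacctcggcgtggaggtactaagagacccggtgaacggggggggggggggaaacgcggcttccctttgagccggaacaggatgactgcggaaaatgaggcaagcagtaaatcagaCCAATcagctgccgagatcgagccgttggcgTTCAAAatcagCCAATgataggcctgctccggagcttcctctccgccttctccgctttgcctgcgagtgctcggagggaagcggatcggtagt
Cdca8: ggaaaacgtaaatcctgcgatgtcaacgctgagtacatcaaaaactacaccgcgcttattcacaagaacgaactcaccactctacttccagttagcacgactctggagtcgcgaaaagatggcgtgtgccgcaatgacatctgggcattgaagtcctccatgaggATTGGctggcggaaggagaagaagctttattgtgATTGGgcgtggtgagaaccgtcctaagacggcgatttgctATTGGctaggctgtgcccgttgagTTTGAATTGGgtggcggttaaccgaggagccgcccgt
A CHR letter sequence (TTTGAA or TTTAAA, either strand) was in the windows of 5 of the 8 genes (Bub1b, Bub3, Ttk, Birc5 and Cdca8) and in 27.6% of the 32851 windows of all genes. CCAAT was in the windows of 5 of the 8 (Bub1, Bub1b, Bub3, Ttk and Cdca8) and in 37.4% of all windows. The E2F letters TTCCCGC and TTGGCGC were in the window of 0 of the 8 genes and in 6.81% of all windows. The Mad2l1 window (chr6:66534971-66535270), which held none of these letters, ended before the annotated start of the gene at 66535390. Its bases after the start were not found in an annotated transcript, so the absence may not hold at the annotated start. The genes with both CHR and CCAAT were Bub1b, Bub3, Ttk and Cdca8, which hold both the largest falls and the 2 genes that did not pass the test at 24 h.

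Between the lines at matched time points, 8 of the 10 transcripts were lower in MSR-dCas9-Activator than in MSR-dCas9-Control cells 24 h after the removal of doxycycline, at 0.315 (Bub1b) to 0.671 (Mad1l1) of the control level. The calls between the lines did not begin together. Ttk, Incenp and Birc5 were called lower already after induction. At that time 0 genes passed as lower than uninduced within the MSR-dCas9-Activator line under TMM. The change from uninduced was more negative than in MSR-dCas9-Control for 0 genes. Bub1b and Mad2l1 followed from 6 h, Mad1l1 and Aurkb from 12 h, and Bub1 at 24 h alone. Bub3 was higher from induction to 12 h and Cdca8 passed the test at no time point. This order is that of TMM with all libraries, and other settings moved several of the early calls. Before induction 0 of 10 passed (edgeR's quasi-likelihood test, adjusted p under 0.05 over all 28536 genes tested; 4 at an unadjusted p under 0.05, and 0 by DESeq2), and of all genes 0.343% passed as lower and 0.883% as higher. After induction 3 genes passed as lower (of all genes 25.5%) and 1 as higher (31.7%). The counts at 3 h were 3 lower (31.4%) and 1 higher (39.6%). By 6 h they were 5 lower (33.3%) and 1 higher (40.8%), and by 12 h 7 lower (34.1%) and 1 higher (41.1%). At 24 h 8 passed as lower (29.4%) and 0 as higher (34.5%). Only from 12 h on was the count of lower genes well above the share among all genes. With the study's further limits (mean above 100 and more than 2-fold), 0 genes passed as lower after induction (5.71% of all genes) and 3 h later (9.45%), 1 by 6 h (10.3%), 2 by 12 h (10.9%) and 4 by 24 h (4.12%). As higher, 0 passed at these time points (2.78%, 3.39%, 3.60%, 4.29% and 3.34% of all genes, in time order). Libraries of the lines did not overlap for 3 lower genes and 1 higher gene after induction (of all genes 26.1% and 31.8%), 3 and 2 at 3 h (31.6% and 39.8%), 4 and 1 by 6 h (30.9% and 38.1%), 7 and 0 by 12 h (33.7% and 39.9%), and 8 and 0 by 24 h (28.8% and 32.7%). The median log2 fold change of the 10 genes was, in time order, -0.20, -0.045, 0.0092, -0.25, -0.81 and -0.99, beside 0.029, 0.10, 0.16, 0.13, 0.12 and 0.0088 for all genes tested. In the additive model over all time points 7 genes passed as lower and Bub3 as higher (of all genes 37.5% and 44.5%).

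**Figure D1:**
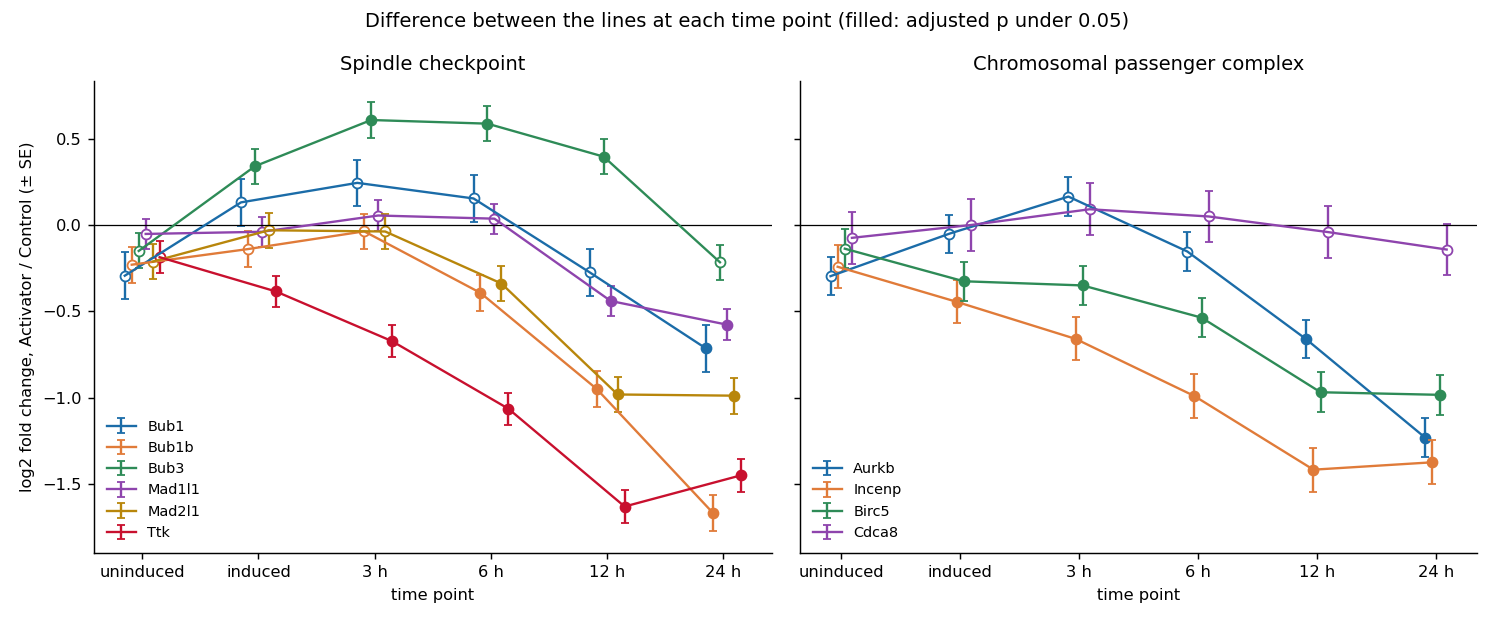
Log2 fold change (MSR-dCas9-Activator over MSR-dCas9-Control, ± SE from edgeR, n = 3 against 3) of the 6 checkpoint genes and the 4 passenger complex genes at 6 time points, which are spaced evenly and not to scale. Filled points passed the test; Bub3 is above 0 from induction to 12 h under this scaling (TMM) and at or below 0.01 under scaling to mitochondrially encoded mRNAs, and 8 genes end between -0.58 and -1.67 at 24 h.

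These calls depend on how the libraries are brought to a common scale up to 12 h, and less at 24 h. When libraries were scaled to the mitochondrially encoded mRNAs, the median of all genes moved to -0.25, -0.44, -0.58, -0.49 and -0.18 from induction to 24 h, and 8, 9, 9, 9 and 10 of the 10 genes passed as lower with 0 higher. With DESeq2 size factors the split of lower and higher genes from induction to 24 h was 2 and 1, 2 and 3, 3 and 3, 7 and 1, and 8 and 0. With library size alone it was 3 and 1, 3 and 1, 6 and 1, 8 and 1, and 8 and 0. Without MSR-dCas9-Activator replicate 2 it was 2 and 1, 3 and 1, 3 and 3, 7 and 1, and 8 and 0. Leaving out replicate number 2 in every group gave 2 lower and 7 higher at 3 h, and 3 lower and 5 higher by 6 h. Ttk and Incenp passed as lower from 3 to 24 h, and the 8 genes at 24 h passed as lower, in each of these alternatives. The shares of all genes called under these alternatives are not given here. The counts therefore show how the calls depend on the setting, and not an excess over all genes.

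Ttk, the kinase at the head of the checkpoint, was among the first 3 genes to be lower and was the lowest of the 10 by 12 h. The MSR-dCas9-Activator means (± SD, n = 3) were 43 ± 4.72 CPM before and 40.4 ± 1.16 CPM after induction. From 3 to 24 h they were 31.5 ± 1.69, 26.5 ± 4.37, 18.6 ± 1.67 and 20.4 ± 2.44 CPM. In MSR-dCas9-Control cells it lay between 48.8 and 57.4 CPM in all 6 groups. At 12 h the replicates held 59.6, 58.7 and 53.9 CPM in MSR-dCas9-Control and 20.1, 16.8 and 18.9 CPM in MSR-dCas9-Activator cells. The groups did not overlap at any time point, the uninduced one included. Between the lines, the log2 fold change was -0.38 (SE 0.091, adjusted p = 0.000703) after induction and -0.67 (SE 0.092, adjusted p = 2.36e-07) at 3 h. It reached -1.06 (SE 0.093, adjusted p = 5.19e-11) by 6 h, -1.63 (SE 0.094, adjusted p = 1.22e-14) by 12 h and -1.45 (SE 0.094, adjusted p = 4.22e-13) by 24 h. Other scalings and tools and the removal of replicates or libraries kept these as lower and past the threshold, while the 2-fold limit was not reached after induction and at 3 h.

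Bub1b, the BubR1 subunit of the APC/C inhibitor, fell late and had the largest difference of the 10 genes at 24 h. After induction its 3 MSR-dCas9-Activator libraries held 146, 139 and 133 CPM beside 159, 157 and 145 CPM in MSR-dCas9-Control. At 12 h it was at 112, 71.2 and 86.6 CPM beside 179.6, 178 and 159.9 CPM, and at 24 h at 54.3, 57.5 and 51.6 CPM beside 185, 175 and 161 CPM. The groups overlapped after induction and were apart at 12 and 24 h. In log2 fold change this was -0.14 (SE 0.10, adjusted p = 0.253) after induction and -0.037 (SE 0.10, adjusted p = 0.761) at 3 h. It then came to -0.39 (SE 0.10, adjusted p = 0.00129) by 6 h, -0.95 (SE 0.10, adjusted p = 3.67e-09) by 12 h and -1.67 (SE 0.11, adjusted p = 3.47e-13) by 24 h. The call at 6 h was lost without MSR-dCas9-Activator replicate 2 (-0.21, adjusted p = 0.0558), with only the 6 libraries of the time point (-0.28, adjusted p = 0.204) and with DESeq2 size factors.

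Bub1, the kinase that recruits Bub1b and marks the inner centromere for the passenger complex, was called lower at 24 h alone. In MSR-dCas9-Activator cells it rose from 97.3 ± 11.7 CPM uninduced to 148 ± 20.6 at 3 h and was at 80.3 ± 18.6 at 24 h. At 24 h the replicates held 99.2, 62.1 and 79.5 CPM beside 133, 129 and 128 CPM in MSR-dCas9-Control, with no overlap. Bub1 gave a log2 fold change between the lines of 0.15 (SE 0.14, adjusted p = 0.305) at 6 h, -0.27 (SE 0.13, adjusted p = 0.0664) by 12 h and -0.71 (SE 0.14, adjusted p = 4.67e-05) by 24 h. Earlier calls depended on the setting. It passed as higher with DESeq2 size factors at 3 h (0.38, adjusted p = 0.024) and 6 h (0.33, adjusted p = 0.0456), with only the 6 libraries of the time point at 3 h (0.34, adjusted p = 0.00928), and without MSR-dCas9-Activator replicate 2 at 6 h (0.36, adjusted p = 0.0207). It passed as lower at 12 h with library size (-0.38, adjusted p = 0.00477), and under mitochondrial scaling from 3 h on. Within the MSR-dCas9-Activator line the change from the uninduced state was 0.52 (SE 0.14, adjusted p = 0.00163) after induction, 0.61 (SE 0.14, adjusted p = 0.000228) at 3 h and -0.29 (SE 0.14, adjusted p = 0.0645) at 24 h, and the rise did not pass when libraries were scaled to mitochondrially encoded mRNAs.

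Bub3, which binds both Bub1 and Bub1b, was higher between the lines from induction to 12 h under TMM, where Ttk was lower. Its MSR-dCas9-Activator means were 110.0 ± 12 CPM before and 158 ± 17.3 CPM after induction. From 3 to 24 h they were 191 ± 25.6, 187 ± 41.1, 174 ± 36.7 and 99.1 ± 17.6 CPM. MSR-dCas9-Control means stayed between 114 and 130.1 CPM. At 3 h the replicates held 199.9, 163 and 212 CPM beside 124, 118 and 133 CPM, and at 24 h 111, 78.9 and 108 CPM beside 112, 106 and 125 CPM. The groups were apart after induction and at 3 and 6 h and overlapped at 12 h, where replicate 2 held 131 CPM, and at 24 h. Its log2 fold change was 0.34 (SE 0.10, adjusted p = 0.00519) after induction and 0.61 (SE 0.10, adjusted p = 5.79e-06) at 3 h. Later values were 0.59 (SE 0.10, adjusted p = 9.13e-06) by 6 h, 0.40 (SE 0.10, adjusted p = 0.000915) by 12 h and -0.22 (SE 0.10, adjusted p = 0.0636) by 24 h. Under mitochondrial scaling the values were -0.021, 0.0055, -0.13, -0.23 and -0.40, of which only the fall at 24 h passed (adjusted p = 0.00244), so the higher level of Bub3 holds relative to the gene counts of the library and not relative to mitochondrial mRNAs. Without MSR-dCas9-Control replicate 1 the value at 24 h passed as lower (-0.28, adjusted p = 0.0348).

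Mad1l1 and Mad2l1, the pair that turns an unattached kinetochore into a soluble signal, were both lower by 12 h, Mad2l1 from 6 h. Mad2l1 was at 50.2, 36 and 45.2 CPM in MSR-dCas9-Activator at 12 h beside 88.2, 85.9 and 82.8 CPM in MSR-dCas9-Control, and at 42.1, 38.3 and 36.4 beside 77.5, 78.5 and 75.1 CPM at 24 h. Mad2l1 had a log2 fold change of -0.037 (SE 0.10, adjusted p = 0.752) at 3 h, -0.34 (SE 0.10, adjusted p = 0.00411) by 6 h, -0.98 (SE 0.10, adjusted p = 1.54e-09) by 12 h and -0.99 (SE 0.10, adjusted p = 3.67e-09) at 24 h. The groups overlapped at 6 h. The call there was lost without MSR-dCas9-Activator replicate 2 (-0.15, adjusted p = 0.16), with only the 6 libraries of the time point (-0.22, adjusted p = 0.303) and with DESeq2 size factors. Mad1l1 moved least among the checkpoint genes that fell, with 32.6, 33.9 and 31.4 CPM beside 51, 48.3 and 47.1 CPM at 24 h and no overlap. Mad1l1 had a log2 fold change of 0.037 (SE 0.087, adjusted p = 0.712) at 6 h, -0.44 (SE 0.088, adjusted p = 5.57e-05) by 12 h and -0.58 (SE 0.088, adjusted p = 2.16e-06) by 24 h. With only the 6 libraries of the time point the call at 12 h was lost (-0.29, adjusted p = 0.0947). At 6 h it passed as higher without MSR-dCas9-Activator replicate 2 (0.19, adjusted p = 0.045) and with DESeq2 size factors (0.22, adjusted p = 0.0305), and as lower under mitochondrial scaling (-0.69, adjusted p = 5.01e-05).

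**Figure D2:**
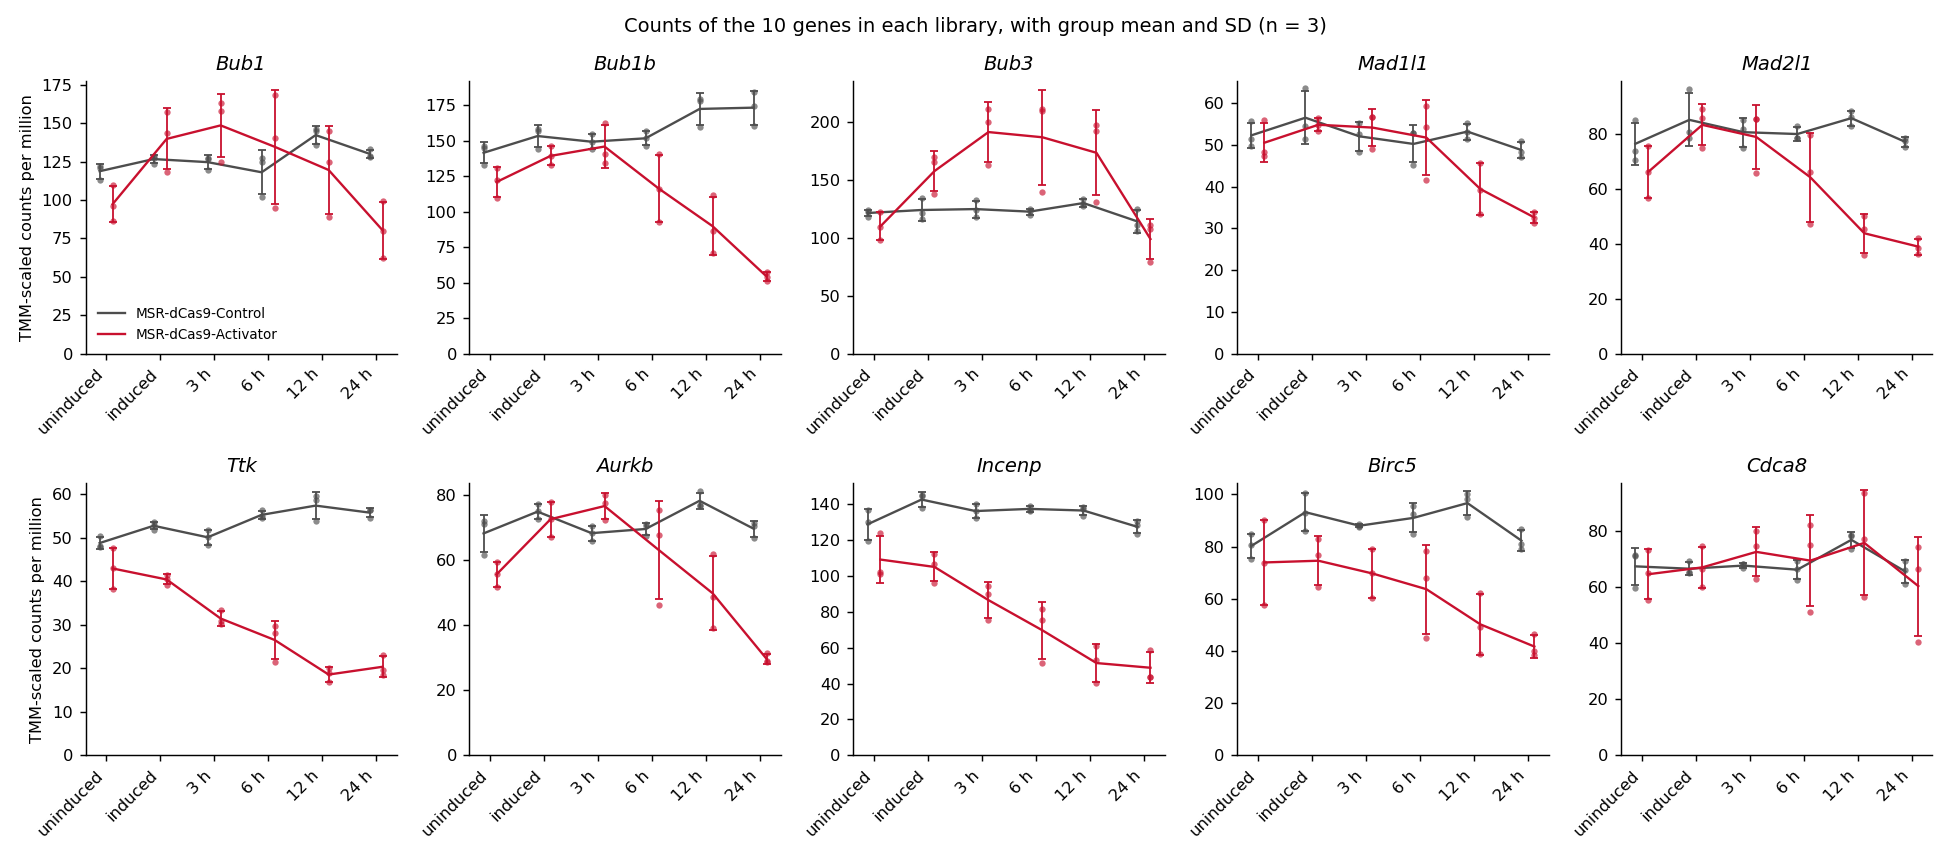
TMM-scaled CPM of the 10 genes in each of the 36 libraries (points), with group means joined by lines and SD bars (n = 3), for MSR-dCas9-Control (grey) and MSR-dCas9-Activator (red) at 6 time points spaced evenly and not to scale. Ttk and Incenp decline from 3 h, Bub1b and Aurkb drop to 54.5 and 29.6 CPM at 24 h, and Bub3 reaches 191 CPM at 3 h before it returns to 99.1 CPM, a rise that did not pass under scaling to mitochondrially encoded mRNAs.

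In the passenger complex, the scaffold Incenp fell with the timing of Ttk. Its MSR-dCas9-Activator means went from 109 ± 12.9 CPM before induction to 86.4 ± 10.1, 69.6 ± 15.8, 51.4 ± 10.6 and 48.8 ± 8.65 CPM from 3 to 24 h. MSR-dCas9-Control means stayed between 127 and 142 CPM. At 6 h the replicates held 81.7, 51.7 and 75.4 CPM beside 137, 136 and 139 CPM, and at 24 h 43.8, 58.8 and 43.8 CPM beside 130.2, 123 and 128 CPM, apart at both. As log2 fold change between the lines, Incenp gave -0.44 (SE 0.12, adjusted p = 0.0032) after induction and -0.66 (SE 0.12, adjusted p = 3.38e-05) at 3 h. It went on to -0.99 (SE 0.13, adjusted p = 6.49e-08) by 6 h, -1.42 (SE 0.13, adjusted p = 6.68e-11) by 12 h and -1.37 (SE 0.13, adjusted p = 3.81e-10) by 24 h. The call after induction was lost by a small margin without replicate number 3 in every group (-0.48, adjusted p = 0.0526).

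Birc5, the Survivin subunit, was lower by a smaller step and drifted down. Its replicates in MSR-dCas9-Activator cells held 82.7, 64.3 and 76.7 CPM after induction beside 101, 85.9 and 93 CPM in MSR-dCas9-Control, and 46.7, 40.0 and 38.4 beside 86.9, 79 and 80.9 CPM at 24 h, with no overlap. Birc5 thus had a log2 fold change of -0.33 (SE 0.11, adjusted p = 0.0156) after induction and -0.35 (SE 0.11, adjusted p = 0.00759) at 3 h. This grew to -0.54 (SE 0.11, adjusted p = 0.000132) by 6 h, -0.97 (SE 0.11, adjusted p = 1.52e-08) by 12 h and -0.98 (SE 0.12, adjusted p = 2.72e-08) by 24 h. The first call was lost without MSR-dCas9-Control replicate 2 (adjusted p = 0.0506) or MSR-dCas9-Activator replicate 2 (adjusted p = 0.0698), and the one at 3 h without MSR-dCas9-Control replicate 2 (adjusted p = 0.0606). DESeq2 size factors gave -0.25 (adjusted p = 0.076) after induction and -0.22 (adjusted p = 0.106) at 3 h. Both calls were also lost without replicate number 2 (adjusted p = 0.266 and 0.699), without replicate number 3 (adjusted p = 0.13 and 0.0969) and without the replicate block (adjusted p = 0.0945 and 0.0655). With only the 6 libraries of the time point Birc5 was not called at 3 h (-0.24, adjusted p = 0.0575) or 6 h (-0.42, adjusted p = 0.0575).

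The kinase Aurkb fell late, like Bub1b. In MSR-dCas9-Activator cells it rose from 55.5 ± 3.75 CPM uninduced to 76.5 ± 4.03 at 3 h, a change of 0.46 (SE 0.11, adjusted p = 0.000519) that did not pass under mitochondrial scaling, and then dropped to 49.7 ± 11.4 at 12 h and 29.6 ± 1.45 at 24 h. At 24 h the replicates held 31.3, 28.7 and 28.9 CPM beside 71.3, 66.7 and 70.5 CPM in MSR-dCas9-Control. Aurkb gave a log2 fold change between the lines of 0.16 (SE 0.11, adjusted p = 0.183) at 3 h and -0.15 (SE 0.11, adjusted p = 0.211) by 6 h. It was -0.66 (SE 0.11, adjusted p = 5.28e-06) by 12 h and -1.23 (SE 0.11, adjusted p = 3.22e-10) by 24 h. At 3 h all 3 MSR-dCas9-Activator libraries were above all 3 of MSR-dCas9-Control (of all genes 39.8%), though the test was not passed. With DESeq2 size factors, and with only the 6 libraries of the time point (0.27, adjusted p = 0.0324), it passed as higher there, and under mitochondrial scaling as lower.

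Cdca8, the Borealin subunit, did not pass at any time point under TMM. Its group means were between 60.4 and 75.9 CPM in MSR-dCas9-Activator and between 65.6 and 76.9 CPM in MSR-dCas9-Control cells. At 24 h the replicates held 74.3, 40.5 and 66.5 CPM beside 61.3, 66.2 and 69.4 CPM, so that replicate 2 was below and the others were within or above the control range. Its log2 fold change by 24 h was -0.14 (SE 0.15, adjusted p = 0.417). The 95% interval was -0.44 to 0.15, which leaves room for a fall smaller than those of Aurkb, Incenp and Birc5, whose intervals were -1.45 to -1.01, -1.62 to -1.12 and -1.21 to -0.76. Under mitochondrial scaling Cdca8 passed as lower at every time point from induction on, with -0.67 at 6 h and -0.33 at 24 h (adjusted p = 0.0405).

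**Figure D3:**
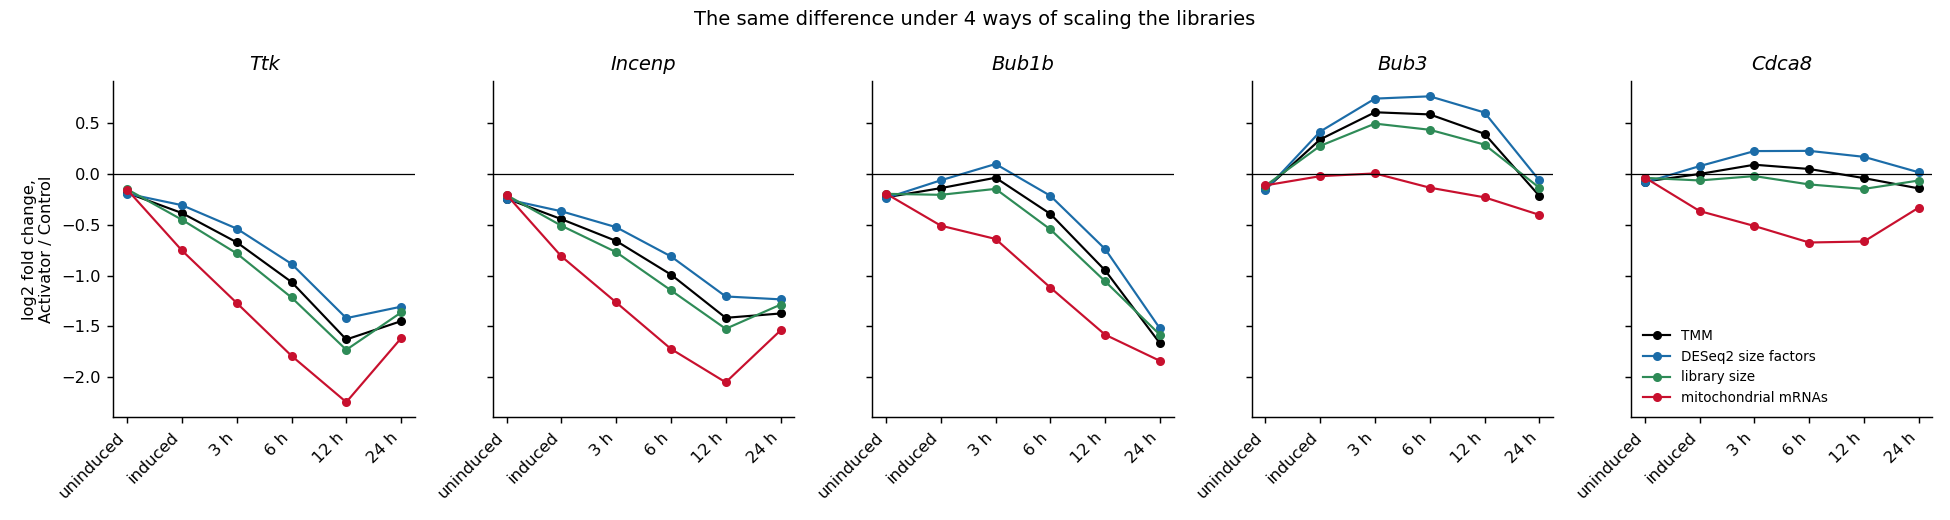
Log2 fold change (MSR-dCas9-Activator over MSR-dCas9-Control) of 5 genes at 6 time points under 4 ways of scaling the same counts: TMM, DESeq2 size factors, library size and the 13 mitochondrially encoded mRNAs. Ttk, Incenp and Bub1b are below 0 at 12 and 24 h under each of the 4, while Bub3 is near or below 0 under mitochondrial scaling and above 0 from induction to 12 h under the other 3.

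The MSR-dCas9-Control line, which also had doxycycline added, for longer, and removed, gave 0 of 10 genes past the test against its uninduced state at each of the 5 later time points (of all genes, in time order, 0.161%, 0.259%, 0.298%, 0.890% and 0.547% passed as lower and 0.0526%, 0.291%, 0.105%, 0.161% and 0.242% as higher). At an unadjusted p under 0.05 there were 0, 0, 0, 3 and 2 genes, and DESeq2 gave 0 throughout. Library size scaling called Bub1b higher at 24 h. The largest values there were 0.29 (SE 0.10, adjusted p = 0.219) for Bub1b at 24 h and 0.28 (SE 0.10, adjusted p = 0.257) at 12 h, and the summed level of the 10 genes stayed between 904 and 1029 CPM. In the MSR-dCas9-Activator line against its own uninduced state, 4 genes passed as higher after induction (Bub1, Bub3, Mad2l1 and Aurkb; of all genes 32.9%) and 0 as lower (28.0%). At 3 h 5 passed as higher (39.8%) and Ttk and Incenp as lower (33.3%). By 6 h Bub1 and Bub3 passed as higher (40.5%) and Ttk and Incenp as lower (34.0%). By 12 h only Bub3 was higher (40.2%) and 6 genes were lower (34.9%), and by 24 h 0 were higher (34.3%) and 7 lower (28.5%). The summed level went from 791 ± 87.1 CPM uninduced to 956 ± 103 at 3 h and 506 ± 45.9 at 24 h. The split depended on the scale. DESeq2 size factors in edgeR gave 0 lower and 6 higher, 1 and 6, 2 and 4, 4 and 3, and 7 and 0 from induction to 24 h. Library size gave 0 and 4, 3 and 3, 4 and 2, 7 and 1, and 7 and 0. Mitochondrial scaling gave 6, 7, 9, 7 and 9 lower with 0 higher. The shares of all genes called under these scalings are not given here. The comparisons within the MSR-dCas9-Activator line and those between the lines share the MSR-dCas9-Activator libraries.

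Uninduced MSR-dCas9-Activator cells had log2 fold changes of -0.30 (SE 0.11, adjusted p = 0.263) for Aurkb to -0.052 (SE 0.087, adjusted p = 0.943) for Mad1l1 against uninduced MSR-dCas9-Control cells. All 10 values were below 0 and 0 passed. Libraries of the lines did not overlap for 4 lower genes (Bub1, Bub1b, Ttk and Aurkb; of all genes 7.93%) and 0 higher ones (8.58%). The changes from the uninduced state were therefore compared between the lines as an interaction. At 24 h the change was more negative in MSR-dCas9-Activator for 7 genes and more positive for 0 (of all genes 18.7% and 14.4%). The largest were Bub1b -1.44 (SE 0.15, adjusted p = 5.62e-08), Ttk -1.26 (SE 0.13, adjusted p = 5.85e-08) and Incenp -1.13 (SE 0.18, adjusted p = 1.96e-05). The others were Aurkb -0.94 (SE 0.16, adjusted p = 4.85e-05), Birc5 -0.85 (SE 0.16, adjusted p = 0.000208), Mad2l1 -0.78 (SE 0.14, adjusted p = 0.000165) and Mad1l1 -0.53 (SE 0.12, adjusted p = 0.00173). For Bub1 it was -0.42 (SE 0.19, adjusted p = 0.0877), which did not pass. At 12 h 6 genes passed as more negative (28.0%), led by Ttk at -1.44 (SE 0.13, adjusted p = 1.33e-09) and Incenp at -1.17 (SE 0.18, adjusted p = 3.55e-06). Bub3 passed as more positive (23.0%) at 0.55 (SE 0.14, adjusted p = 0.00234), which also passed with DESeq2 size factors and library size, and not under mitochondrial scaling or without replicate number 3. After induction Bub3 alone passed, as more positive at 0.49 (SE 0.14, adjusted p = 0.00985), with 0 genes more negative (of all genes 14.5% and 17.7%). It did not pass under mitochondrial scaling, without replicate number 3 or without the replicate block. From 12 to 24 h the difference between the lines moved further down for 3 genes and up for 0 (of all genes 6.38% and 8.70%). It was -0.72 (SE 0.15, adjusted p = 0.00145) for Bub1b, -0.61 (SE 0.14, adjusted p = 0.0045) for Bub3 and -0.57 (SE 0.16, adjusted p = 0.0139) for Aurkb. For Ttk and Incenp it was 0.18 (SE 0.13, adjusted p = 0.379) and 0.043 (SE 0.18, adjusted p = 0.937). Under mitochondrial scaling, and without replicate number 1 or 3, 0 genes passed in this last comparison.

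Shares of a complex's own counts need no scaling, and they show the members moving apart. Among the counts of the 6 checkpoint genes, Bub3 took 22.5% ± 0.682 (SD, n = 3) in uninduced and 35.8% ± 1.87 in MSR-dCas9-Activator cells at 12 h, and Ttk went from 8.80% ± 0.310 to 3.9% ± 0.485. In MSR-dCas9-Control the shares at 12 h were 20.3% ± 1.09 for Bub3 and 8.95% ± 0.209 for Ttk. By library, Bub3 held 34.6%, 34.7% and 37.9% in MSR-dCas9-Activator and 19.7%, 19.6% and 21.6% in MSR-dCas9-Control at 12 h, with no overlap and with replicate 2 among the others. In the passenger complex the share of Incenp went from 36% ± 1.58 uninduced to 22.7% ± 0.741 at 12 h. That of Cdca8 went from 21.3% ± 0.923 to 33.3% ± 0.852. In MSR-dCas9-Control at 12 h the shares were 35.1% ± 0.756 and 19.8% ± 0.906. A share also rises when the other genes of its complex fall. The TMM-scaled level of Cdca8 at 12 h was 75.9 CPM in MSR-dCas9-Activator and 76.9 CPM in MSR-dCas9-Control. Aurkb dropped from 21.9% ± 0.622 at 12 h to 16.4% ± 0.584 at 24 h. At 24 h the replicates differed, with Cdca8 at 37.9%, 24.1% and 37.5% and Incenp at 22.4%, 35% and 24.6% in replicates 1, 2 and 3. Replicate 2 at 24 h also had a fibroblast marker sum of 20110 CPM beside 10940 and 11610 CPM, and an endothelial one of 14.1 beside 37.8 and 27.8 CPM, and the part of this in the shares was not tested. With 3 samples against 3 an exact permutation test cannot go below p = 0.1, so the shares are given as values without a test.

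**Figure D4:**
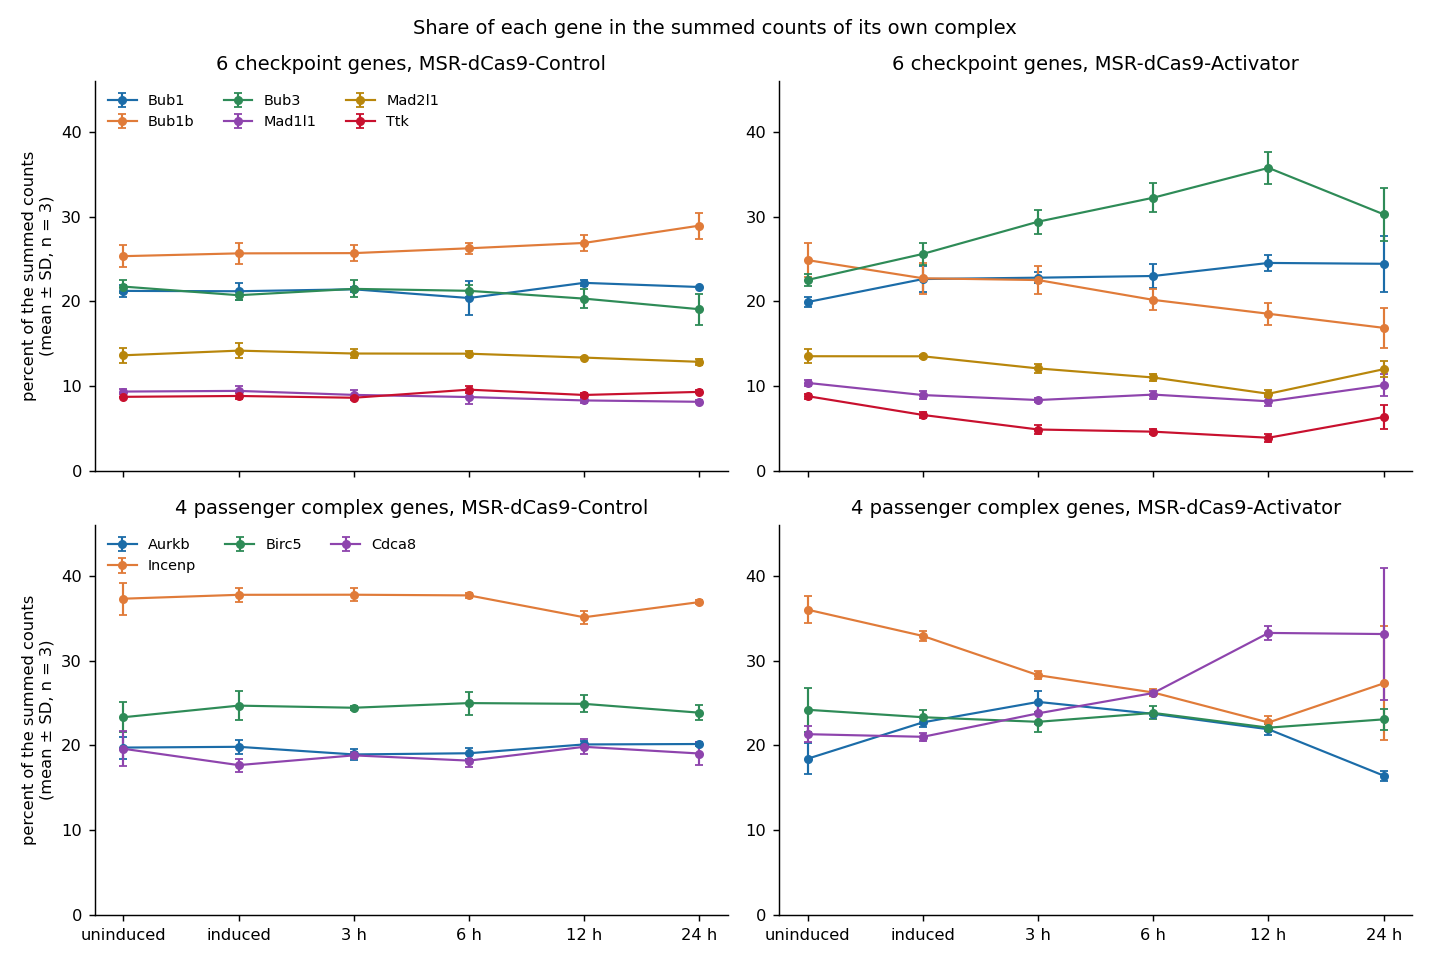
Share of each gene in the summed counts of the 6 checkpoint genes (top) and of the 4 passenger complex genes (bottom), as mean ± SD of 3 libraries, in MSR-dCas9-Control (left) and MSR-dCas9-Activator cells (right) at 6 time points spaced evenly and not to scale. The lines on the left are nearly flat, while on the right Bub3 reaches 35.8% and Ttk 3.9% at 12 h, and Cdca8 and Incenp change places (33.3% and 22.7% at 12 h).

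Over the 12 group means, the log2 levels of Ttk and Incenp (r = 0.989), Incenp and Birc5 (r = 0.975) and Bub1b and Aurkb (r = 0.965) were the most alike, and both the first and the last of these pairs join a checkpoint gene with one of the passenger complex. Bub3 was least like Ttk (r = -0.371) and Incenp (r = -0.291). The correlation of each gene with the mean profile of the other 9 was highest for Aurkb (0.993) and lowest for Cdca8 (0.493) and Bub3 (0.176). Among 13619 other genes with a mean above 100, genes among those most like the mean profile of the 10 were Anln (an actin-binding protein of the cleavage furrow, r = 0.991), Atad2 (0.989), Lrwd1 (0.986) and Adk (adenosine kinase, 0.984). These are descriptions over 12 groups that share libraries, scaling and the one contrast between the lines.

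Genes that work with the 10 were lower at 24 h in larger shares than all genes tested, of which 29.4% were lower and 34.5% higher. The signs of those named here held under each of the 4 scalings, and exceptions among the calls are given at the end. Of 8 checkpoint partners 5 were lower and 1 higher at 24 h, with a median log2 fold change of -0.47 beside 0.0088 for all genes tested. The lowest were Knl1, the kinetochore scaffold that recruits Bub1 and Bub3, at -1.58 (adjusted p = 6.25e-13), and Kntc1 (Rod), at -0.97 (adjusted p = 9.02e-10); Zw10 was at -0.33 (adjusted p = 0.000345) and Mad2l1bp (p31comet, which helps switch the checkpoint off) was higher at 0.33 (adjusted p = 0.00882). Of 17 APC/C genes 9 were lower and 1 higher (7 and 2 with DESeq2 size factors), from Cdc23 at -1.17 (adjusted p = 7.02e-11) and Anapc1 at -0.99 (adjusted p = 8.25e-10) to Cdc27 at -0.30 (adjusted p = 0.000177) and Anapc7 at 0.54 (adjusted p = 1.71e-06). Of 10 tested partners of the passenger complex 9 were lower and 0 higher, with a median of -0.91. Sgo2a, a shugoshin that protects centromeric cohesin, was at -1.46 (adjusted p = 3.46e-12) and Ect2, the activator of RhoA in cytokinesis, at -1.23 (adjusted p = 1.7e-11), while Sgo1 was at -0.76 (adjusted p = 7.08e-09) and Kif4 at -0.69 (adjusted p = 2.74e-07).

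Among 18 other mitotic genes 17 were lower and 0 higher at 24 h, with a median of -0.88. Cenpf was at -1.48 (adjusted p = 5.93e-12) and Top2a, topoisomerase IIα, at -1.42 (adjusted p = 1.17e-10), and the smallest falls were Aurka at -0.38 (adjusted p = 0.0245) and Nusap1 at -0.38 (adjusted p = 0.0125). At 3 h the mitotic list had 4 lower and 11 higher (of all genes 31.4% and 39.6%). Under mitochondrial scaling it had 8 lower and 0 higher, for which the shares of all genes are not given here. By 12 h it had 11 lower and 3 higher (of all genes 34.1% and 41.1%). Of 16 S-phase genes 12 were lower and 0 higher at 24 h (median -0.50), with Gins1 at -1.55 (adjusted p = 6.11e-11) and Rrm2 at -1.25 (adjusted p = 1.04e-08) lowest and Mcm3 at -0.35 (adjusted p = 0.0221) and Mcm2 at -0.27 (adjusted p = 0.0497) nearest to 0. Of 19 cell cycle regulators 15 were lower and 3 higher (median -0.53). E2f2 and E2f8 were at -1.39 (adjusted p = 3.31e-08) and -1.27 (adjusted p = 2.22e-12), Lin52, a MuvB subunit, at 1.00 (adjusted p = 2.35e-07), and Cdkn1a (p21, an inhibitor of cyclin-dependent kinases) had the largest rise at 2.74 (adjusted p = 1.2e-10), from 4.54 ± 0.343 CPM in MSR-dCas9-Control to 31 ± 12.1 CPM in MSR-dCas9-Activator cells. The median of the 10 checkpoint and passenger complex genes, -0.99, lay below those of the 6 lists at 24 h, and the difference between the lists was not tested. With DESeq2 size factors Zw10, Cdc27, Aurka, Nusap1, Mcm2 and Mcm3 were not called, with library size Mcm2 was not, and under mitochondrial scaling Mad2l1bp and Anapc7 were not.

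**Figure D5:**
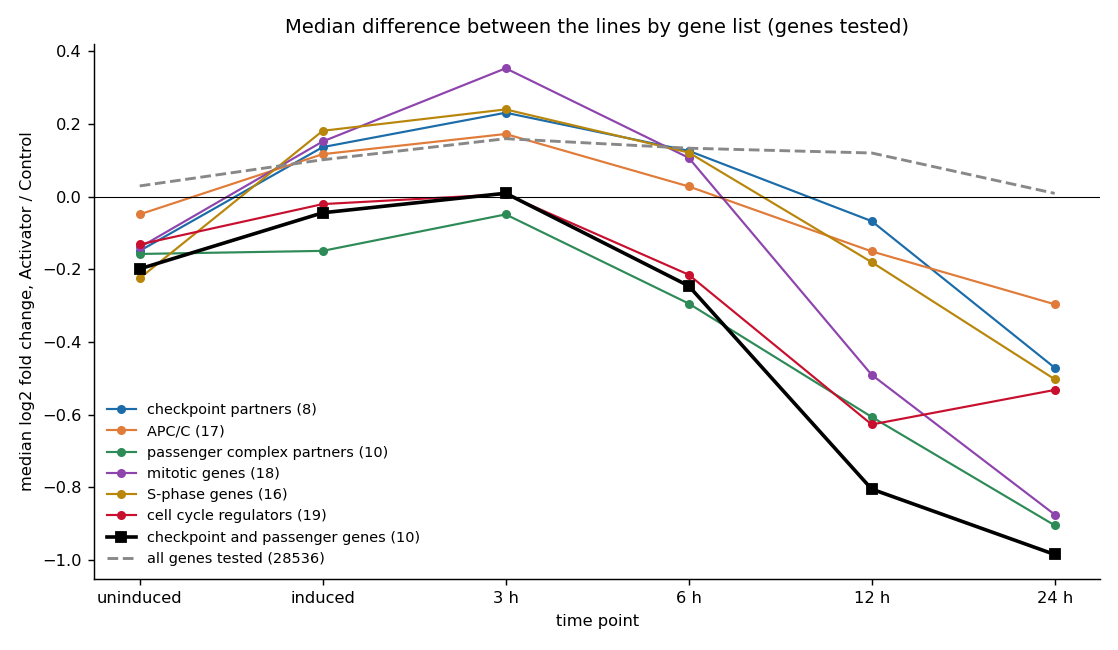
Median log2 fold change (MSR-dCas9-Activator over MSR-dCas9-Control, TMM scaling) of the 10 checkpoint and passenger complex genes (black squares), 6 lists of related genes and all genes tested (dashed) at 6 time points spaced evenly and not to scale. The 10 genes go from -0.20 before induction to -0.99 at 24 h while all genes stay between 0.0088 and 0.16; under scaling to mitochondrially encoded mRNAs the median of all genes is at or below -0.18 from induction on.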

How the data were processed

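RNA of 36 libraries (paired-end, stranded total RNA, 3 biological replicates in each of 12 groups) had been sequenced by the authors. Per the labels and the study's methods, the authors trimmed reads with cutadapt 1.8.1 (quality threshold 20), aligned them to GRCm38 with STAR 2.5.2b and obtained gene and repeat counts from TEtranscripts 2.0.3. Which annotation release and which strand setting were used is not given in the sources used here. The deposited values are raw counts for 54842 genes and 1561 repeat families, with 1 entry that names no gene left out. Libraries of the MSR-dCas9-Repressor line were not used here.

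From these counts, genes that passed filterByExpr (28536) were fitted with edgeR 4.0.16 (R 4.3.3; TMM, quasi-likelihood, robust) in a model of 12 groups plus replicate number, as the study's design names replicate. Comparisons were the lines at each time point, each line against its uninduced state, and the difference between these changes, with a separate additive model over the time course. P-values were adjusted over all genes tested by Benjamini-Hochberg (threshold 0.05), and SE was the log2 fold change over the root of F. P-values and SE measure the spread between these samples, estimated over the 12 groups together and not only within the groups compared. The groups differed in spread. At 6 h the SD of Incenp was 15.85 CPM in MSR-dCas9-Activator and 1.455 CPM in MSR-dCas9-Control. Alternatives were DESeq2 1.42.0 and its size factors, library size, 13 mitochondrially encoded mRNAs as scale, no filter, no replicate term, only the 6 libraries of a time point, a 2-fold limit with a mean above 100, and leaving out replicates or libraries. GENCODE M21 gave positions and exon lengths (54495 gene IDs matched). All 10 genes are named in every comparison. From each related list, the 2 lowest and 2 highest genes at 24 h among those that passed are named, and, of the 5 genes most like the mean profile, 4 are named and 1 is not reported here. The 10 genes and the lists were chosen with earlier results of these data known. The scripts were tested on simulated data.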

Additional observations from a re-analysis of the deposited data

Results flagged for a closer look

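For 15 gene and time point pairs the change from the uninduced state differed between the lines by the interaction test (MSR-dCas9-Activator less MSR-dCas9-Control, log2). After induction the difference for Bub3 was 0.49. At 12 h it was -1.44 for Ttk, -1.17 for Incenp, -0.83 for Birc5, -0.77 for Mad2l1, -0.72 for Bub1b and -0.39 for Mad1l1, and 0.55 for Bub3. At 24 h it was -1.44 for Bub1b, -1.26 for Ttk, -1.13 for Incenp, -0.94 for Aurkb, -0.85 for Birc5, -0.78 for Mad2l1 and -0.53 for Mad1l1. Neither positive value, both of Bub3, passed when libraries were scaled to mitochondrially encoded mRNAs.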

How the results depend on the processing

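The 8 lower genes at 24 h, and the lower Ttk and Incenp from 3 h on, passed under every alternative run on single genes. With a 2-fold limit and a mean above 100 the number of genes called between the lines from induction to 24 h was 0, 0, 1, 2 and 4 in place of 4, 4, 6, 8 and 8. Under mitochondrial scaling, for which the shares of all genes are not given here, it was 8 after induction and 9 by 3 h. The MSR-dCas9-Activator line then gave 9 genes in place of 4 by 6 h, the interaction after induction 3 in place of 1, and the comparison of 12 with 24 h 0 in place of 3. With only the 6 libraries of the time point, 3 genes were called by 6 h in place of 6. Library size gave 1 in place of 0 for MSR-dCas9-Control cells by 24 h.

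Between the lines, either 1 replicate number or 1 library was left out at a time. From induction to 24 h this gave 1 to 5, 3 to 9, 5 to 8, 7 to 9 and 8 to 9 genes called. In the other comparisons only replicate numbers were left out, which gave 6 to 9 genes over the time course. For the MSR-dCas9-Activator line the ranges were 1 to 6, 3 to 8, 3 to 8, 7 to 9 and 7 to 8. The interaction gave 0 to 3 genes after induction, 5 to 7 by 12 h, again 5 to 7 by 24 h, and 0 to 4 between 12 and 24 h. Before induction and in MSR-dCas9-Control cells the count stayed 0.

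Signs turned as follows, and the cause was not tested. Under mitochondrial scaling the log2 fold changes between the lines, from induction to 6 h, were -0.24, -0.36 and -0.57 for Bub1 and -0.36, -0.51 and -0.67 for Cdca8. For Bub3 they were -0.0214 after induction, -0.13 by 6 h and -0.23 by 12 h, for Mad1l1 -0.55 by 3 h and -0.69 by 6 h, and for Aurkb -0.44 by 3 h. DESeq2's size factors, in edgeR and in its own test, gave after induction 0.0385 (size factors) and 0.0379 (DESeq2's test) for Mad1l1, 0.0474 (size factors) and 0.0473 (DESeq2's test) for Mad2l1 and 0.0271 (size factors) and 0.0272 (DESeq2's test) for Aurkb. By 3 h they gave 0.0985 (size factors) and 0.0986 (DESeq2's test) for Bub1b and 0.0977 (size factors) and 0.0978 (DESeq2's test) for Mad2l1, and by 6 h 0.0256 (size factors) and 0.0255 (DESeq2's test) for Aurkb. For Cdca8 they gave 0.17 by 12 h and 0.0167 (size factors) and 0.0163 (DESeq2's test) by 24 h. Library size gave -0.0634, -0.0206 and -0.10 for Cdca8 from induction to 6 h, and -0.0567 and -0.12 for Mad1l1 by 3 and 6 h. Without the filter Cdca8 was at -0.0074 after induction. Without 1 replicate number, the ranges that crossed 0 were, after induction, Bub1b -0.15 to 0.0435, Mad1l1 -0.0624 to 0.077, Mad2l1 -0.0904 to 0.15, Aurkb -0.12 to 0.17 and Cdca8 -0.10 to 0.28. By 3 h these were Bub1b -0.0914 to 0.22, Mad1l1 -0.0337 to 0.34 and Mad2l1 -0.0912 to 0.24. By 6 h they were Bub1 -0.12 to 0.60, Mad1l1 -0.0276 to 0.26, Mad2l1 -0.52 to 0.0063, Aurkb -0.31 to 0.22 and Cdca8 -0.12 to 0.41. By 12 h they were Bub1 -0.41 to 0.0288 and Cdca8 -0.24 to 0.26, and by 24 h Bub3 -0.32 to 0.0057 and Cdca8 -0.36 to 0.23.

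Samples of the same replicate number mostly deviated together. Of 18 same-number pairs, 16 had deviations correlated above 0.1 (-0.0151 to 0.485), all but number 2 at 12 and 24 h, and 16 correlated best with their own number. The labels do not say what a number marks. Without the replicate block, the interaction after induction gave 0 genes in place of 1, Birc5 was not called after induction or 3 h later, and 48 of 50 single results kept their call.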
